A study of Mus musculus with 11 samples.

Results

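The 10 genes described here encode the AP-1 factors Fos, Fosb, Fosl2, Jun, Junb, Jund and Atf3 and the early growth response factors Egr1, Egr2 and Egr3. They were chosen by mouse symbol out of the 51912 genes of the count table, and all 10 were found there and passed the filter on low counts, as did 15703 genes in all. RNA was sequenced from lineage-negative, GFP- and RFP-positive C57BL/6 mouse bone marrow cells that carried a tamoxifen-activated Cre (Rosa26 ERT2-Cre) and a pair of retroviral vectors. An insert in MIG is active from transduction on, whereas one in idsRed stays silent until tamoxifen switches Cre on. CSF3R-only cells (n = 4) carried CSF3R T618I, an activating mutant of the receptor for granulocyte colony-stimulating factor, in MIG and an empty idsRed. CSF3R-first cells (n = 3) carried CSF3R T618I in MIG and CEBPA V314VW, a mutant of the myeloid transcription factor C/EBP-alpha, in idsRed. CEBPA-first cells (n = 4) carried CEBPA V314VW in MIG and CSF3R T618I in idsRed. After sorting, the cells of all groups were kept for 48 h in cytokine-free medium with 4-hydroxytamoxifen, so that every group had CSF3R T618I. It was present from the start in CSF3R-only and CSF3R-first and induced late in CEBPA-first, so that CEBPA-first differs from the other groups in the timing and vector of CSF3R T618I as well as in CEBPA V314VW, and these cannot be told apart. The oncogenes are expressed from retroviral promoters in cultured marrow, and no group without any oncogene is among these samples.

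AP-1 is a dimer of basic leucine zipper proteins: a JUN protein pairs with itself, with a FOS protein or with an ATF protein and binds DNA. EGR proteins are zinc finger factors that bind GC-rich promoters and take part in macrophage differentiation. Most of these genes are immediate-early genes, whose transcription rises within minutes of a signal from a growth factor or cytokine receptor through MAP kinases, serum response factor (SRF) with its ELK partners, and CREB. Their messenger RNAs are short-lived.

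Promoter sequences are shown for Fos, Atf3 and Egr2, the genes, of the 8 searched, in which the core of the cyclic AMP response element, to which CREB and ATF proteins bind, was found. Promoters of 300 bases, from 250 bases before to 50 after the transcription start, were taken from RefSeq (GRCm38.p6) for 8 of the genes; Egr1 and Egr3 were not searched. The RefSeq starts of Junb (84978748) and Jund (70697739) lie outside the GENCODE genes, and that of Jund is upstream of the gene start at 70698949, so that its window does not span the start of the annotated gene. The 8-letter element TGACGTCA was in none of the 8, and its 6-letter core TGACGT, searched for after that result was seen, was in 3 of them against 7.51% of 32817 mouse promoters of the same length (the full element is in 1.79%). Both strands were searched, and every full element also holds the core. The core begins 66 bases before the start in Fos (position -66), at -8 on the opposite strand in Atf3 and at -56 on the opposite strand in Egr2, where a CArG box, the SRF element, begins at -72 (1.63% of promoters hold one). Capitals mark these matches. The sequences lie at chr12:85473640-85473939 on the plus strand (Fos), chr1:191183284-191183583 on the minus strand (Atf3) and chr10:67537619-67537918 on the plus strand (Egr2, for which RefSeq lists 5 starts).
Fos: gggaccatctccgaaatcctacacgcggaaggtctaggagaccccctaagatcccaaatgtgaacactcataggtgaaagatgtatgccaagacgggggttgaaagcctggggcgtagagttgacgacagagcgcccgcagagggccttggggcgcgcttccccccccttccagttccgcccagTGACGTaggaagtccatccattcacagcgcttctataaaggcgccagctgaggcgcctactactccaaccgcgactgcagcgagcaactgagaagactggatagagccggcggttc
Atf3: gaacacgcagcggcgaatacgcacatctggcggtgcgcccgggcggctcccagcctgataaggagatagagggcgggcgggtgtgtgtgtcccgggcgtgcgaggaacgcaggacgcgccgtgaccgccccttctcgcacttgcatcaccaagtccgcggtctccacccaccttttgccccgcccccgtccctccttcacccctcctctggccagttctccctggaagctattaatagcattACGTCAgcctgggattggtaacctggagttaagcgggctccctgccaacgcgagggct
Egr2: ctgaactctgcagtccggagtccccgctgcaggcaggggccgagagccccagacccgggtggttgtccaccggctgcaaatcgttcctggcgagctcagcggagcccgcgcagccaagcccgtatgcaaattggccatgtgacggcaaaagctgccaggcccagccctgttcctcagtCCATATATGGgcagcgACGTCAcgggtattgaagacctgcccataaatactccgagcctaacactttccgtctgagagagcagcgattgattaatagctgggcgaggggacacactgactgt
The AP-1 element TGANTCA (7.81% of promoters), the EGR element GCGTGGGCG (0.612%) and the STAT element TTCNNNGAA (8.29%) had no match in these 8 windows, and the C/EBP element TTGCNNAA (10.8%) had 1, in the window upstream of Jund. A match is a string of letters and not a shown binding site, and the search misses variant elements and those outside the windows.

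Libraries held 47905747 to 72268346 counts. Levels are given in CPM (counts scaled to a common library size) after TMM scaling, and differences were tested with the quasi-likelihood method of edgeR, with p-values adjusted by Benjamini-Hochberg over all 15703 genes. A gene is called at an adjusted p under 0.05. The 3 comparisons share samples, so that they are not independent of each other. Replicate A of CSF3R-first stood apart from B and C: the chi-square of its counts against theirs, divided by the degrees of freedom, was 110 and 82.2, against 9.95 to 43 for pairs within the other groups. The labels do not say whether replicates are separate animals or cultures, so that p-values measure the spread between these samples, which may be technical.

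By group mean, the AP-1 and EGR messenger RNAs were highest in CSF3R-only and, except Egr1, lowest in CEBPA-first. Fos and Fosb were not called between CSF3R-first and CSF3R-only (adjusted p = 0.083 and 0.31, edgeR). Between CEBPA-first and CSF3R-only, all 10 genes were lower in CEBPA-first, where 36.6% of all genes tested were called lower and 35.4% higher. At a change of at least 2-fold as well, 9 of the 10 were called, against 19.0% of all genes. In 9 of 10 the groups did not overlap, against 34.5% of all genes with no overlap in that direction. The median log2 fold change was -1.52 over the 10 genes and -0.004 over all genes. No gene of the 10 was higher, by edgeR, by DESeq2 or at an unadjusted p under 0.05 (0 genes each). Fosb and Egr3 had few counts and did not pass a filter of 10 counts in every sample, under which 8 genes were lower.

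**Figure D1:**
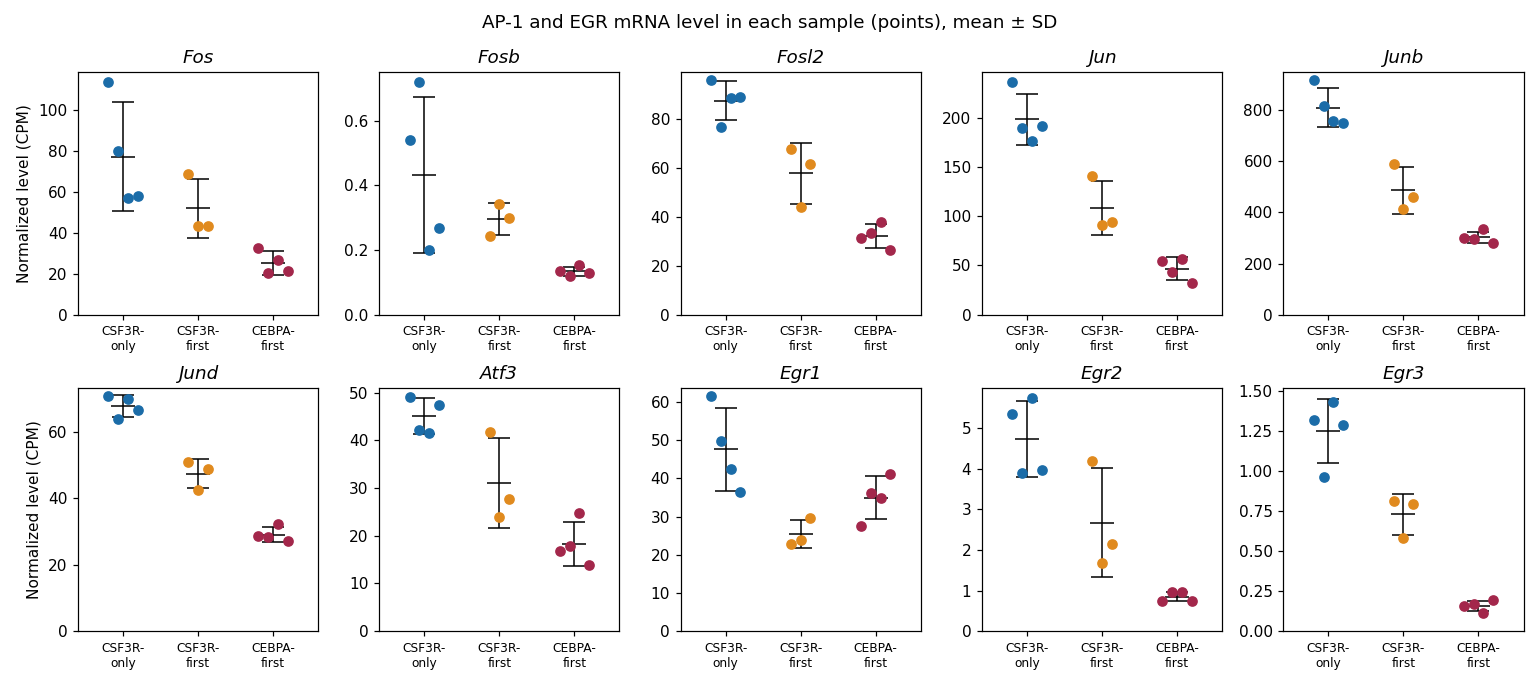
Normalized level (CPM, linear axis from 0) of each gene in each of the 11 samples; points are samples in the order A to D, and bars are the mean ± SD of the group. In 9 panels the CEBPA-first samples have the lowest mean; in the Egr1 panel the CSF3R-first samples do, at 25.4 CPM.

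Of the FOS genes, Fos (chr12:85473890-85477273, plus strand, GRCm38), the founding partner of JUN proteins, was measured at 114.1, 79.98, 57.1 and 58.3 CPM in CSF3R-only replicates A to D. It was at 68.9, 43.5 and 43.5 CPM in the CSF3R-first samples and at 32.9, 20.3, 27.0 and 21.4 CPM in CEBPA-first. All CEBPA-first samples lay below all others, while CSF3R-first A lay within the CSF3R-only range. The log2 fold change of CEBPA-first against CSF3R-only was -1.61 ± 0.24 (SE; adjusted p = 4e-05, edgeR).

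Fosl2 (chr5:32135801-32157842, plus strand), a FOS protein without the strong activation domain of Fos, was at 95.6, 76.7, 88.3 and 88.8 CPM in CSF3R-only. Its levels were 67.8, 43.9 and 61.6 CPM in the CSF3R-first samples and 31.5, 33.3, 38.0 and 26.3 CPM in CEBPA-first. The 3 groups did not overlap, and the log2 fold change of CEBPA-first against CSF3R-only was -1.44 ± 0.14 (adjusted p = 8.3e-07, edgeR). Fosb (chr7:19302696-19310051, minus strand) was measured on few reads, with 10 to 36 counts per CSF3R-only library, 12 to 19 in the CSF3R-first samples and 7 to 10 in CEBPA-first. Its levels were 0.54, 0.721, 0.202 and 0.269 CPM in CSF3R-only, 0.244, 0.342 and 0.3 CPM in the CSF3R-first samples and 0.137, 0.119, 0.154 and 0.128 CPM in CEBPA-first. CEBPA-first lay below both other groups, and its log2 fold change against CSF3R-only was -1.67 ± 0.40 (adjusted p = 0.0021, edgeR).

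Of the JUN genes, Junb had the highest level of the 10. It was at 916.4, 815.2, 755 and 749.6 CPM in CSF3R-only, at 587.1, 412.1 and 458.4 CPM in the CSF3R-first samples and at 300.6, 295.7, 333.3 and 279.4 CPM in CEBPA-first. No 2 groups overlapped, and the log2 fold change of CEBPA-first against CSF3R-only was -1.42 ± 0.11 (adjusted p = 1.5e-07, edgeR). Jun, the founding member of the family, was at 236.1, 189.2, 176.7 and 191.1 CPM in CSF3R-only, at 140.3, 91.2 and 93.7 CPM in the CSF3R-first samples and at 54.7, 43.5, 56.9 and 32.4 CPM in CEBPA-first. Its groups did not overlap either, and its log2 fold change, -2.08 ± 0.18 (adjusted p = 4.7e-07, edgeR), was the most negative of the 7 AP-1 genes. Jund, usually the least signal-dependent JUN gene, was at 70.9, 63.9, 69.97 and 66.7 CPM in CSF3R-only. It was at 50.9, 42.5 and 48.9 CPM in the CSF3R-first samples and at 28.7, 28.4, 32.3 and 27.0 CPM in CEBPA-first. Its spread was the smallest of the 10 in CSF3R-only (SD 4.68% of the mean), and its log2 fold change was -1.22 ± 0.07 (adjusted p = 2e-08, edgeR).

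The counts of Jund are uncertain. In the GENCODE annotation of GRCm38, 52.6% of its exon bases (chr8:70698949-70700616) lie in exons of Gm11175 on the opposite strand, and Gm11175 had 0 counts in all libraries. For Jun (chr4:95049034-95052222) 7.28% of exon bases lie in exons of Junos and for Junb (chr8:84974484-84978718) 7.52% lie in exons of Prdx2, both on the opposite strand. The strand setting of the counting is not given in the sources used here, so reads of the partners cannot be told apart. Junos itself was at 3.79 ± 0.472 CPM (SD) in CSF3R-only, 1.18 ± 0.482 in the CSF3R-first samples and 0.179 ± 0.0898 in CEBPA-first.

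Atf3 (chr1:191170296-191218039, minus strand), a stress-induced AP-1 partner that can repress inflammatory genes, was at 49.2, 42.2, 41.4 and 47.4 CPM in CSF3R-only. It was at 41.7, 23.9 and 27.6 CPM in the CSF3R-first samples and at 16.8, 17.9, 24.7 and 13.8 CPM in CEBPA-first. CEBPA-first and CSF3R-only did not overlap, with a log2 fold change of -1.30 ± 0.18 (adjusted p = 2.7e-05, edgeR), whereas CSF3R-first A reached the CSF3R-only range.

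The EGR genes did not share one pattern. Egr2 (chr10:67535475-67542188, plus strand), a factor of macrophage and Schwann cell differentiation, was at 5.36, 3.91, 5.75 and 3.98 CPM in CSF3R-only, at 4.2, 1.67 and 2.15 CPM in the CSF3R-first samples and at 0.753, 0.955, 0.96 and 0.741 CPM in CEBPA-first. Egr3 (chr14:70077203-70082614, plus strand), best known in T cells and muscle spindles, was at 1.32, 0.961, 1.43 and 1.28 CPM in CSF3R-only, at 0.812, 0.584 and 0.79 CPM in the CSF3R-first samples and at 0.154, 0.171, 0.115 and 0.192 CPM in CEBPA-first. In both genes every CEBPA-first sample lay below every other sample. The log2 fold change of CEBPA-first against CSF3R-only was -2.48 ± 0.27 for Egr2 (5.58 times lower; adjusted p = 2.8e-06, edgeR). For Egr3 it was -2.95 ± 0.24 (7.71 times lower; adjusted p = 2.5e-07, edgeR), which is the most negative of the 10 genes and rests on 6 to 15 counts per CEBPA-first library.

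Egr1, the most abundant EGR gene, was at 61.7, 49.7, 42.6 and 36.5 CPM in CSF3R-only, at 22.8, 23.9 and 29.5 CPM in the CSF3R-first samples and at 27.6, 36.3, 34.9 and 41.1 CPM in CEBPA-first. CSF3R-first was thus the lowest group, and CEBPA-first overlapped both others. Egr1 was lower in CEBPA-first when set against CSF3R-only by a log2 fold change of -0.44 ± 0.16 (adjusted p = 0.021, edgeR). That call was lost without CSF3R-only replicate A (-0.30, adjusted p = 0.078), without CEBPA-first replicate A (-0.34, adjusted p = 0.067) and with scaling to total counts (-0.30, adjusted p = 0.11).

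The comparison of CEBPA-first with CSF3R-first asks whether the order of the oncogenes matters, since both groups carry the same pair. Of the 10 genes, 9 were lower in CEBPA-first and Egr1 was higher, where 24.3% of all genes were called lower and 24.0% higher. At least 2-fold lower were 5 (Fos, Fosb, Jun, Egr2 and Egr3), against 10.3% of all genes. Without CSF3R-first replicate A these were 2 (Egr2 and Egr3; 8.47% of all genes), with Fos at -0.78 and Jun at -0.98, and without CEBPA-first replicate B or D 3 (Jun, Egr2 and Egr3; 9.30% and 9.97%). The groups did not overlap in 8, against 24.8% of all genes. The exceptions were Atf3 and Egr1. The median log2 fold change was -0.94 over the 10 genes and 0.001 over all genes. Egr3 differed by -2.17 ± 0.26 (adjusted p = 3.4e-05, edgeR) and Egr2 by -1.65 ± 0.28 (adjusted p = 0.00059, edgeR). Jun differed by -1.21 ± 0.19 (adjusted p = 0.0003, edgeR), Fos by -1.03 ± 0.25 (adjusted p = 0.0046, edgeR) and Junb by -0.68 ± 0.11 (adjusted p = 0.00048, edgeR). Fosl2, Jund and Atf3 differed by -0.84, -0.71 and -0.77, and Atf3 by -0.49 (adjusted p = 0.034, edgeR) without CSF3R-first replicate A.

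The calls of Fosb and Egr1 in this comparison were not firm. Fosb differed by -1.13 ± 0.44 (adjusted p = 0.047, edgeR), which was lost without any 1 of the 7 libraries of these groups (adjusted p 0.063 to 0.12), without CSF3R-only replicate A (0.051) and by DESeq2 (0.07). Egr1 was 1.38 times higher in CEBPA-first, at a log2 fold change of 0.46 ± 0.17 (adjusted p = 0.04, edgeR). Its call was lost without CSF3R-first A (0.39, adjusted p = 0.12) or B (0.42, adjusted p = 0.10), without CEBPA-first B (0.44, adjusted p = 0.082), C (0.46, adjusted p = 0.063) or D (0.37, adjusted p = 0.10), and without CSF3R-only replicate B (0.46, adjusted p = 0.055). Its sign was positive under every alternative run.

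**Figure D2:**
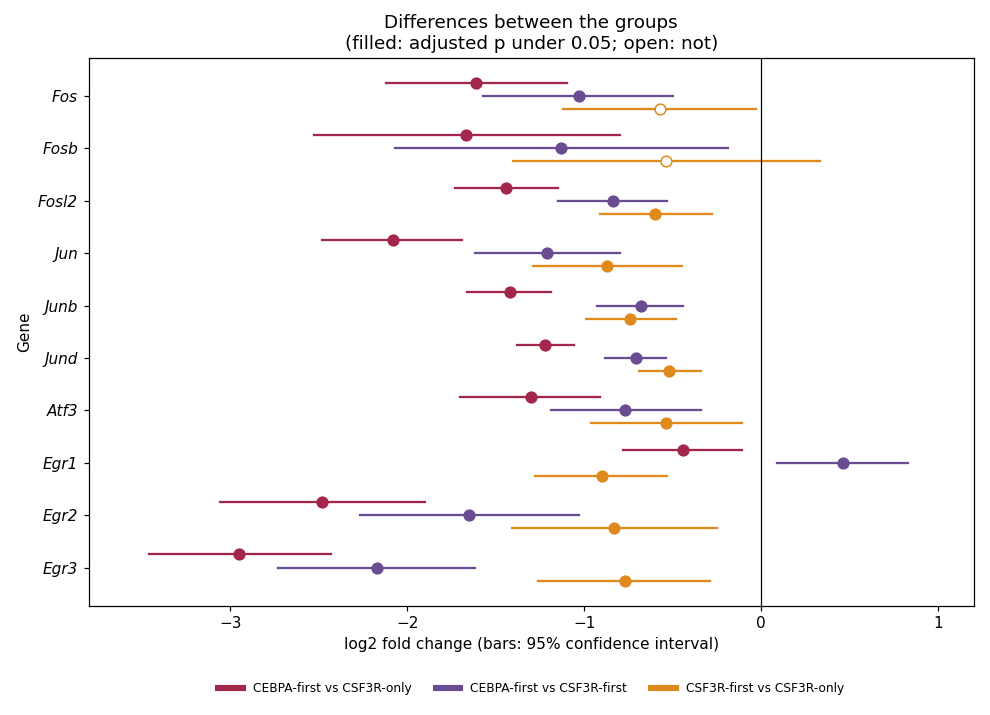
log2 fold change of each gene in the 3 comparisons (colours), with 95% confidence intervals; filled points passed an adjusted p of 0.05 and open points did not. Egr1 is the only gene with a positive value, 0.46 for CEBPA-first against CSF3R-first, and Fos and Fosb carry open points for CSF3R-first against CSF3R-only.

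The comparison of CSF3R-first with CSF3R-only asks what late CEBPA V314VW adds to CSF3R T618I. Of the 10 genes, 8 were lower in CSF3R-first, where 21.1% of all genes were called lower and 21.6% higher. None was 2-fold lower and called, against 4.53% of all genes (9 of the 10 had an unadjusted p under 0.05, and DESeq2 called 8). Without CSF3R-first replicate A, 2 were (Jun at -1.10 and Egr2 at -1.30; 6.41% of all genes), and without CSF3R-only replicate D or CSF3R-first replicate C 1 was (Egr1; 4.10% and 3.94%). None was higher by edgeR, by DESeq2 or at an unadjusted p under 0.05. The groups did not overlap in 6 genes (Fosl2, Jun, Junb, Jund, Egr1 and Egr3), against 21.4% of all genes, and in all but Fosb (9 genes) without CSF3R-first replicate A. The median log2 fold change was -0.67 over the 10 genes and -0.022 over all genes.

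Egr1 had the most negative value of this comparison, -0.90 ± 0.17 (1.87 times lower; adjusted p = 0.0015, edgeR), followed by Jun at -0.87 ± 0.19 (adjusted p = 0.0035, edgeR). Egr2 was at -0.83 ± 0.27 (adjusted p = 0.026), Egr3 at -0.77 ± 0.23 (adjusted p = 0.015) and Junb at -0.74 ± 0.12 (adjusted p = 0.0005). Fosl2, Jund and Atf3 were at -0.60, -0.52 and -0.54, with an adjusted p of 0.041 for Atf3. Fos, at -0.57 (95% interval -1.12 to -0.03; adjusted p = 0.083), and Fosb, at -0.54 (-1.40 to 0.33; adjusted p = 0.31), did not pass. Without CSF3R-first replicate A, which was the highest of its group in 8 of the 10 genes, Fos passed too (-0.83, adjusted p = 0.017), Egr2 moved to -1.30 (adjusted p = 0.00029), and 9 genes were called. Without CSF3R-first replicate B, 5 genes were called: Atf3 (adjusted p = 0.18), Egr2 (0.11) and Egr3 (0.078) were lost. Fos also passed without CSF3R-only replicate C (-0.70, adjusted p = 0.048), but moved to -0.33 (adjusted p = 0.26) without CSF3R-only A, and Fosb moved to -0.17 (adjusted p = 0.73) without CSF3R-only B. The call of Atf3 was lost without CSF3R-only A (0.09), B (0.057), C (0.051) or D (0.082), CSF3R-first C (0.15) and CEBPA-first A (0.051) or B (0.056), and that of Egr2 without CSF3R-only A (0.06) or C (0.065) and CSF3R-first C (0.10), each an adjusted p.

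On a scale of mean log2 CPM where CSF3R-only is 0 and CEBPA-first is 1, CSF3R-first lay at 0.274 for Fosb and Egr3, 0.349 for Fos, 0.376 for Egr2, 0.423 to 0.432 for Jun, Jund, Fosl2 and Atf3 and 0.527 for Junb. Egr1 lay at 2.05, outside both ends. Single libraries moved these positions: with each of the 11 left out in turn, they ran from 0.0769 to 0.4 for Fosb, 0.251 to 0.49 for Fos, 0.261 to 0.533 for Egr2, 0.306 to 0.609 for Atf3 and 0.221 to 0.304 for Egr3. Those of Jun, Jund, Fosl2 and Junb ran from 0.298 (Fosl2) to 0.63 (Junb), and that of Egr1 from 1.73 to 2.75. The lowest value of Fosb came without CSF3R-only replicate B, and the highest of Fos, Egr2 and Atf3 without CSF3R-first replicate A. The ranges of genes next to each other on this scale overlapped, except that Egr1 stayed above 1 throughout.

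**Figure D3:**
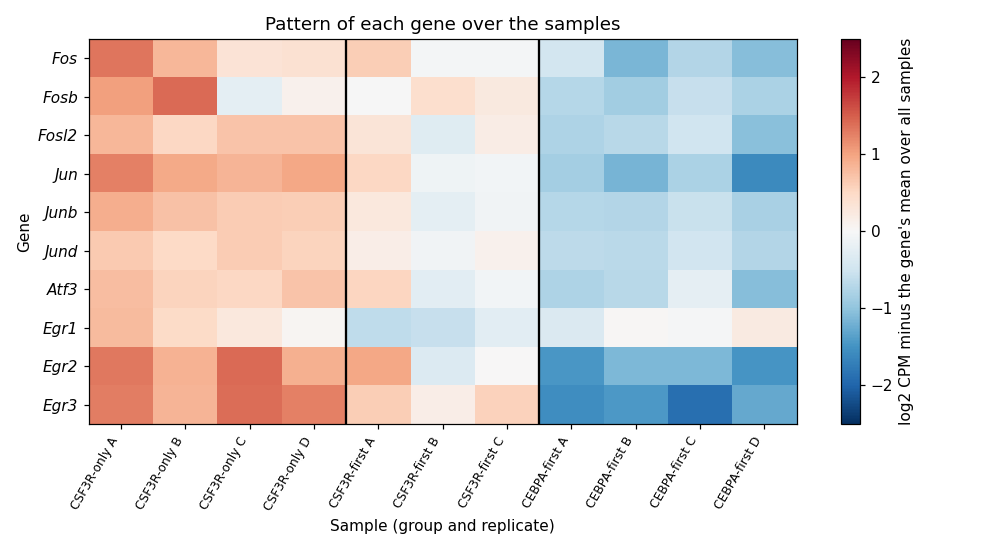
log2 CPM of each gene minus its mean over the 11 samples, by sample; red is above and blue below the mean, and black lines part the groups. In 9 rows all CEBPA-first samples are below the mean; the Egr1 row is lowest in CSF3R-first, and CSF3R-only C is below the mean for Fosb (-0.253).

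Patterns over the 11 samples were compared by the root mean square distance of these centred log2 values, as a description. Among the 10 genes, the nearest pairs were Fosl2 and Atf3, Fosl2 and Junb, and Junb and Jund, each at 0.14. Egr1 was at least 0.54 from each of the others, and farthest from Egr3 (1.17). Of the other genes tested, the nearest to Jun were Pygl (0.08), Fam214b (0.09) and Cd300lb (0.10), and the nearest to Junb were Sertad3 (0.06), Klc4 (0.07) and Ptpn1 (0.07). Nearest to Jund were Pacs1 and Mindy1 (0.06 each) and Fam217b (0.07), to Fosl2 Phf21a and Zbtb42 (0.08 each) and Ube2h (0.09), and to Atf3 Pnrc1 (0.10), Phf21a and Mxi1 (0.12 each). Fos was nearest to 4930445N18Rik (0.16), Gpr137b-ps and Spsb2 (0.20 each), and Fosb to Gm42934 (0.31), Ifi205 and Efnb2 (0.32 each). Egr2 was nearest to Arl4c (0.21), Pde4b (0.22) and Creb5 (0.23), and Egr3 to Prnp (0.21), Prkcb and Tbxas1 (0.24 each). Egr1 was nearest to A230060F14Rik and Nat8l (0.22 each) and Pitpnc1 (0.23). With distances over the 3 group means, none of these genes stayed among the nearest 3.

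Compared with each other per kb of exon (CPM divided by exon length, described with no test), the genes of CSF3R-only ran from Junb at 351.6 ± 33.7 CPM per kb (SD) through Jun (62.2 ± 8.15), Jund (40.7 ± 1.91), Fos (32.9 ± 11.3), Atf3 (20.9 ± 1.77), Egr1 (10.6 ± 2.42) and Fosl2 (9.03 ± 0.81) to Egr2 (1.40 ± 0.278), Egr3 (0.283 ± 0.0457) and Fosb (0.0693 ± 0.0387). Jund and Fos, and Egr1 and Fosl2, overlapped. In CEBPA-first, Junb was again highest (131.4 ± 9.82 CPM per kb), followed by Jund (17.4 ± 1.36), Jun (14.7 ± 3.54), Fos (10.8 ± 2.46), Atf3 (8.50 ± 2.15) and Egr1 (7.80 ± 1.24), in which each gene from Jund to Egr1 overlapped the next. Jun also overlapped Atf3, and Fos overlapped Egr1. With the longest transcript as the length, Fosl2 in CSF3R-only came to 13.4 CPM per kb, above Egr1. The level and rank of Jund rest on counts that are uncertain, as given above.

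Within each family, the shares of the summed CPM per kb show which gene changed more. Jun made up 13 to 14.4% of the 3 JUN genes in CSF3R-only, 11.4 to 13.3% in the CSF3R-first samples and 6.88 to 10.4% in CEBPA-first, so that CEBPA-first lay below both. Shares of the JUN genes also rest on the uncertain counts of Jund. Egr1 made up 82.5 to 89% of the 3 EGR genes in CSF3R-only, 78.2 to 89.5% in the CSF3R-first samples and 96 to 97.2% in CEBPA-first, while Egr3 made up 0.324 to 0.544% there and 1.75 to 3.04% in CSF3R-only. The share of Fos among the 3 FOS genes overlapped in all groups (71.4 to 83%).

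**Figure D4:**
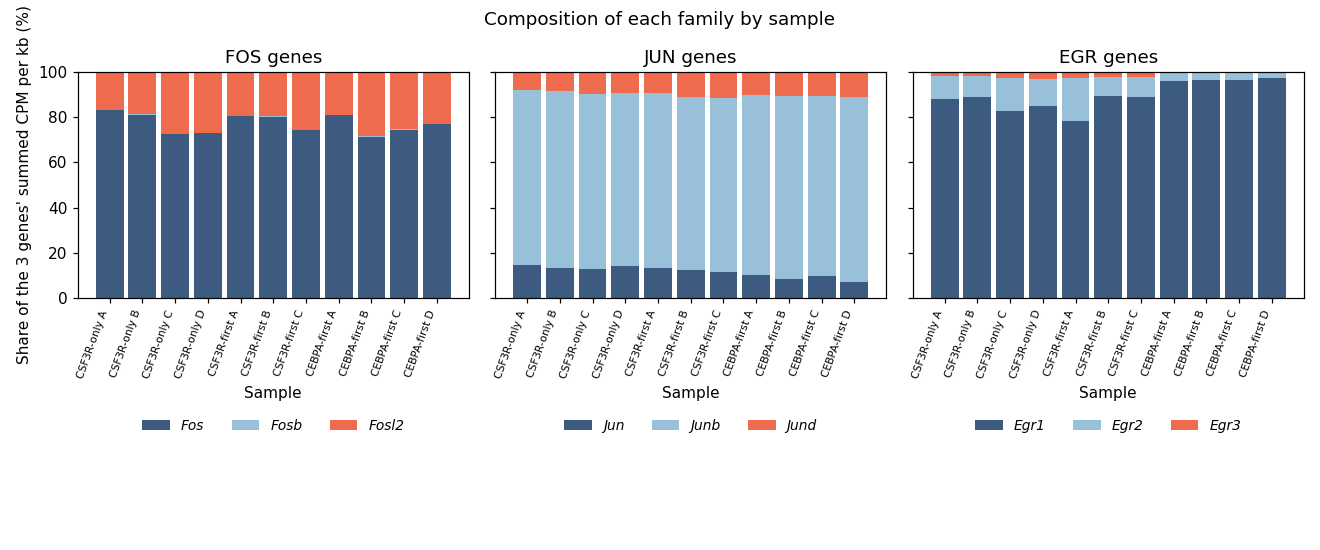
Share of each gene in the summed CPM per kb of exon of its family (percent, bars stacked to 100), by sample. Egr1 fills 96 to 97.2% of the EGR bars in CEBPA-first; the FOS bars look alike in all groups, with Fosb under 0.3%.

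Genes of the same pathway were counted from lists, to be read against the shares of all genes given above for each comparison. Of the other AP-1 family genes, 3 of 7 were lower in CEBPA-first when set against CSF3R-only (Batf2 at -0.89, Fosl1 at -0.66 and Jdp2 at -0.23), Atf2 was higher at 0.36, and 3 were not called (median -0.23), a share near that of all genes called lower (36.6%). Against CSF3R-first, 1 of the 7 was lower and 1 higher. Nab1 and Nab2, co-repressors of EGR proteins, were both lower in CEBPA-first when set against CSF3R-only. Nab2, itself an EGR target, was at -1.83 ± 0.14 (adjusted p = 1.4e-07, edgeR) and Nab1 at -0.62 ± 0.07 (adjusted p = 3.7e-06, edgeR). Against CSF3R-first, Nab2 was at -1.01 and Nab1 at -0.32. Egr4 did not pass the filter.

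Of 27 other immediate-early genes tested, 20 were lower in CEBPA-first when set against CSF3R-only, 5 were higher and 2 were not called (median -0.94), where 36.6% of all genes were called lower and 35.4% higher. Btg2, an antiproliferative gene, was at -2.44 ± 0.13, Nfkbia, the NF-kB inhibitor, at -2.01 ± 0.12, Ier5 at -2.18 ± 0.13 and the zinc finger factor Klf2 at -2.52 ± 0.17. The 5 higher genes, named after their values were seen, were Myc (1.56), Nr4a2 (0.90), Rgs1 (0.87), Dusp2 (0.79) and Klf4 (0.54). Against CSF3R-first, 19 of the 27 were lower and 5 higher (all genes, 24.3% and 24.0%). Between CSF3R-first and CSF3R-only, 17 were lower and 2 higher (all genes, 21.1% and 21.6%).

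Of 9 feedback inhibitors of ERK signaling, 6 were lower in CEBPA-first when set against CSF3R-only and 3 were not called. Dusp6, an ERK phosphatase induced by ERK activity, was at -2.85 ± 0.18, Dusp5 at -1.13 ± 0.13, Spred3 at -1.79 ± 0.21 and Dusp4 at -1.49 ± 0.28. Against CSF3R-first, 4 of the 9 were lower and 2 higher, Spry4 at 0.79 (adjusted p = 0.04, edgeR) and Spred1 at 0.37 (adjusted p = 0.0014, edgeR). Between CSF3R-first and CSF3R-only, 5 were lower and 4 were not called. Upstream, the SRF, ELK and CREB list was split in CEBPA-first against CSF3R-only, with 4 of 9 lower and 3 higher (median 0.11). Elk3 (0.76) and Srf (0.53) were higher, and Elk1 (-0.59) and Mrtfa (-0.50) were lower. Against CSF3R-first, 1 of these 9 was lower (Elk1 at -0.30) and 4 were higher (Elk3 at 0.68, Creb1 at 0.26, Elk4 at 0.22 and Srf at 0.19), and between CSF3R-first and CSF3R-only 3 were lower and 1 higher. Of 16 MAP kinase and kinase kinase genes tested, 7 were lower in CEBPA-first when set against CSF3R-only and 3 higher (median -0.16). Mapk13 was at -2.66, Mapk11 at -2.12 and Braf at -0.79. Of these 16, 6 were lower and 1 higher when CEBPA-first was set against CSF3R-first, and 6 were lower and 2 higher between CSF3R-first and CSF3R-only.

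Of 12 genes known from textbooks as AP-1 targets, 10 were lower in CEBPA-first when set against CSF3R-only, and Il6 was higher at 1.29 (median -1.54). Mmp9, a neutrophil granule protease, was at -5.59 ± 0.23, Il1b at -4.89 ± 0.24, Tnf at -3.14 ± 0.18 and Cd44 at -1.28 ± 0.09. Mmp9 is also on the neutrophil list below. Against CSF3R-first, 8 of the 12 were lower and 1 higher, and between CSF3R-first and CSF3R-only 6 were lower and 6 were not called.

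Against CSF3R-only, most markers of maturing neutrophils and monocytes were lower in CEBPA-first, as the 10 genes were. All 12 neutrophil markers were lower in CEBPA-first when set against CSF3R-only (median -3.29), with summed levels of 26900 to 33200 CPM in CSF3R-only, 14700 to 25600 in the CSF3R-first samples and 6500 to 8650 in CEBPA-first. Among them were the granule proteins Mmp9 (-5.59) and Ltf (-5.65), Retnlg (-5.14) and S100a9 (-2.86). Of 12 monocyte and macrophage markers 11 were lower, with sums of 3160 to 4000, 1700 to 3040 and 937 to 1330 CPM, and Ly6c2, a marker of classical monocytes, was higher at 0.32 (adjusted p = 0.043, edgeR). The lower ones included the receptors Cx3cr1 (-4.46), Csf1r (-2.34) and Ccr2 (-1.40) and the macrophage antigen Adgre1 (-2.28). All 7 megakaryocyte markers were lower (882 to 1200, 341 to 525 and 112 to 155 CPM; Gp6 at -6.78, Vwf at -4.88, Gp1bb at -4.76 and Pf4 at -3.50), as were 7 of 8 erythroid markers (247 to 378, 116 to 387 and 38.4 to 54.9 CPM), among them the globin genes Hba-a2 (-5.33), Hbb-bs (-5.01), Hba-a1 (-4.86) and Hbb-bt (-3.38), between whose near-identical copies reads can be split. Of 8 mast cell and basophil markers 5 were lower, with Hdc at -1.72, Mcpt8 at -2.20 and Cma1 at -2.15, and Fcer1a was higher at 1.15 (1970 to 2880, 1230 to 1460 and 1240 to 1610 CPM). Of 8 stem and progenitor markers 4 were lower and 3 higher, with Ly6a at -2.67, Cd34 at -2.31 and Myb at 1.62 (722 to 1060, 566 to 693 and 593 to 681 CPM), and of 3 dendritic cell markers tested Itgax was lower at -2.63 and Flt3 higher at 1.5 (11.1 to 14.4, 10.2 to 12.9 and 7.93 to 9.45 CPM). CSF3R-first replicate A had the highest neutrophil sum (25600 CPM) and monocyte sum (3040 CPM) of its group. In bulk RNA, fewer cells of a type and less RNA per cell cannot be told apart, and the part of cell composition in these results was not tested. The 2 B cell markers tested summed to 3.59 to 4.51, 3.26 to 4.2 and 5.77 to 6.8 CPM, highest in CEBPA-first, where Cd79b was higher than in CSF3R-only at 0.82 (adjusted p = 0.0001, edgeR) and Cd79a lower at -2.21 (adjusted p = 8.9e-05, edgeR). The 1 T cell marker tested, Cd3d, had 1 to 16 counts per library and was lower in CEBPA-first when set against CSF3R-only (-2.25, adjusted p = 0.00063, edgeR), while Cd3e and Cd8a were at 0 counts in every library.

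Of 11 heat shock genes, listed as a sign of handling, 10 were higher in CEBPA-first when set against CSF3R-only, and 1 was not called. Their sums were 3990 to 4860 CPM in CSF3R-only, 5670 to 7040 in the CSF3R-first samples and 8010 to 8990 in CEBPA-first. In CSF3R-only, Hspa5, Hsp90ab1 and Hspa8 had means of 1560, 1160 and 760 CPM, but Hspa1a and Hspa1b 0.753 and 2.11 CPM. The cytosolic chaperones Hsph1 and Hsp90ab1 were at 1.26 ± 0.11 and 1.01 ± 0.10, the mitochondrial chaperonin Hspd1 at 1.38 ± 0.13 and the endoplasmic reticulum chaperone Hspa5 at 0.79 ± 0.07. Of the stress-induced, near-identical copies Hspa1a and Hspa1b, between which reads can be split and which were picked after their values were seen, Hspa1a was at -0.39 ± 0.21 (adjusted p = 0.11, edgeR) and Hspa1b was higher at 0.45 ± 0.18 (adjusted p = 0.042, edgeR). Between CSF3R-first and CSF3R-only they were at -0.02 (adjusted p = 0.95) and 0.65 (adjusted p = 0.019). The part of handling was not tested.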

How the data were processed

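RNA-seq of 11 samples was analysed. Per the labels, total RNA was made into libraries with a SMARTer low-input kit; Trimmomatic trimming and STAR alignment were done by the authors, who deposited raw whole-number counts per gene without normalization (submitters' processing notes name mm10). The counting tool and strand setting are not given in the sources used here. No value columns were left out. Of 51912 genes, 23409 had no count, and 279 identifiers had no symbol (at most 0.0279% of counts).

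Counts were filtered with filterByExpr, scaled by TMM and tested with edgeR 4.0.16 (R 4.3.3), all 3 groups in one fit, called at an adjusted p under 0.05. The study's 2-fold limit was counted beside it. SE is the log2 fold change over the square root of F, and a prior count of 2 entered log2 CPM. A count of 0 allows 3 counts, or 0.0383 to 0.0648 CPM; this covers counting error only. Positions and exon lengths come from GENCODE M21 (GRCm38). The code was tested on simulated data, with acceptance limits revised after a first run did not meet them; the share of false calls there was above its target slightly for edgeR and clearly for DESeq2, so DESeq2 calls are a weak check. Alternatives were DESeq2 1.42.0, other scalings and filters, 2-group fits, a replicate block and leaving out each sample. Figures used matplotlib 3.10.9.

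The 10 genes and the lists were chosen with earlier results of these data known. All 10 are named, with up to 4 genes per list by smallest adjusted p in CEBPA-first against CSF3R-only, and the 3 genes with the nearest pattern; other list genes were named after their values were seen. The values of 2 genes that this rule names are not reported here.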

Additional observations from a re-analysis of the deposited data

How the results depend on the processing

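The number of genes lower in CEBPA-first when set against CSF3R-only was 9 to 10 when single samples were left out and 8 under a filter of 10 counts in every sample, which Fosb and Egr3 did not pass. Against CSF3R-first it was 8 to 9 with single samples left out and 5 with the 2-fold limit. The single gene higher in that comparison, Egr1, was not called (0 genes) with upper-quartile scaling, with at least 10 counts in every sample, with the replicate block or with the 2-fold limit, and leaving out single samples gave 0 to 1. The number lower in CSF3R-first than in CSF3R-only was 5 to 9 with single samples left out and 0 with the 2-fold limit. With single samples left out, an alternative chosen after seeing the data, the number at least 2-fold lower was 9 in CEBPA-first against CSF3R-only, 2 to 5 against CSF3R-first and 0 to 2 in CSF3R-first against CSF3R-only, and the number without overlap was 9 to 10, 8 to 9 and 6 to 9. Without a count filter, Fosb lost its call in CEBPA-first against CSF3R-first (adjusted p = 0.074, edgeR), and in CSF3R-first against CSF3R-only Egr3 lost its call (0.054) and Fos gained one (0.042). Scaling to total counts lost Fosb in the former (0.053) and Atf3 in the latter (0.053), and fitting only the compared groups lost Egr2 in the latter (0.057). The causes were not tested. No log2 fold change of the 10 genes changed sign under the alternatives run. Scaling to total counts moved the median of all genes to 0.129 in CEBPA-first against CSF3R-only.

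Same-letter samples deviated together in part. Correlations of their deviations were -0.107 to 0.362 over 10 pairs (median 0.124, 7 over 0.1), against a median of -0.07 over 30 pairs of different letters (5 over 0.1), and a sample correlated best with its own letter in 12 of 20 cases. Pairing was taken only if every same-letter pair was over 0.1, which was not met, and the labels name no shared animal or batch. The replicate block gave 10, 8 and 9 genes lower in the 3 comparisons. It lost Fosb (adjusted p = 0.081) and Egr1 (0.058) in CEBPA-first against CSF3R-first and called Fos in CSF3R-first against CSF3R-only (-0.66, adjusted p = 0.0016, edgeR), and over all genes it moved calls from 11314 to 11501, from 7578 to 7705 and from 6703 to 7216. Depth limits Fosb and Egr3, which had 7 to 36 and 6 to 81 counts per library.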
